A study of Mus musculus with 24 samples.

Results

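Keratin-associated protein (Krtap) genes were followed through the chromatin domains of lamin B1, of lamin A/C and of its partner LAP2alpha in mouse dermal fibroblasts. They were taken as all protein-coding genes of an mm9 annotation with a symbol that starts with Krtap, which gave 46 of 22350 protein-coding gene records on 20 chromosomes. A gap of over 1 Mb between neighbours opened a new cluster, and the 46 genes fell into 4 clusters, 1 each on chromosomes 7, 10, 11 and 16. Another 7 Krtap records of the annotation were not protein coding and were left out.

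Krtap proteins fill the space between keratin filaments in the hair shaft and cross-link them through their many cysteines. They are grouped as high-sulfur and ultra-high-sulfur proteins, rich in cysteine, and as high glycine-tyrosine proteins. Their genes are small, lie in tandem clusters and are switched on late in the hair follicle, in cells that build the shaft. Dermal fibroblasts do not build hair. Genes that are silent in a cell often lie in lamina-associated domains, long and gene-poor stretches of chromatin at the nuclear periphery that lamin B1 marks. A-type lamins are also found in the nuclear interior, where LAP2alpha, an isoform encoded by Tmpo, binds them.

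The cells were immortalized dermal fibroblasts, either wild type (WT, Lap2alpha +/+) or lacking LAP2alpha (KO, Lap2alpha -/-). Chromatin was sheared by 12 or 30 sonication cycles and precipitated with antibodies to LAP2alpha, to lamin B1, or to lamin A/C, for which N18 binds the N terminus and 3A6 the Ig fold. LAP2alpha and lamin B1 libraries came from WT cells, and both lamin A/C antibodies were used in WT and KO at both sonications, which gave 8 WT and 4 KO libraries, 1 per group. With 1 library per group no difference between conditions has a replicate check, and all values below are descriptions without a test.

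The region lists behind the values were long EDD domains, which the authors called in bins of 11 kb, and short SICER islands. A gene counted as inside where domains took up 50% or more of its length, and every share of Krtap genes is set beside the share of all protein-coding genes inside the domains of the same library. Islands held between 3989494 and 13601739 reads per library. For lamin A/C, both genotypes were sequenced together in 1 lane per sonication. The sonications of LAP2alpha and of lamin A/C were run in separate lanes, so that sonication and lane cannot be told apart there, and those of lamin B1 in 1 lane. The files hold no RNA values, so whether any Krtap gene was expressed in these cells was not analysed here. The labelled cell type could not be checked against its markers for the same reason.

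The chromosome 11 cluster was the largest by number, with 22 genes over 444 kb from Krtap3-3 to Krtap17-1 (chr11:99411446-99855308 on mm9). It lay within the type I keratin genes, with Krt40, a hair keratin, 6.97 kb before its first member and Krt33a, another hair keratin, 17.2 kb after its last. The chromosome 16 cluster held 19 genes over 960 kb from Krtap24-1 to Krtap11-1 (chr16:88610954-89571428), between Cldn8, a tight junction gene 47.5 kb away, and Tiam1, which encodes a Rac activator and lay 216 kb away. The chromosome 7 cluster held 4 Krtap5 genes over 130.0 kb from Krtap5-2 to Krtap5-4 (chr7:149360437-149490408), and chromosome 10 held Krtap12-1 alone (chr10:77183331-77184001, 671 bp). Another 34, 14 and 5 protein-coding genes lay between the members on chromosomes 11, 16 and 7. Nearly all of these (34, 13 and 5) had provisional Gm or Rik symbols, the exception being AY026312 on chromosome 16, and the symbol rule left them out whatever they encode.

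The clusters differed in what their members encode. All 22 genes of chromosome 11 and Krtap12-1 had more cysteine codons than glycine and tyrosine codons together. On chromosome 16, 17 of the 19 genes had more glycine and tyrosine codons together than cysteine codons. The median share of cysteine codons was 31.2% on chromosome 11 (range 14.6% to 38.9%) and 9.45% on chromosome 16 (3.23% to 16.7%). Glycine and tyrosine codons together took a median of 54.0% on chromosome 16 and 4.36% on chromosome 11. On chromosome 16 the exceptions were Krtap27-1, with 8.42% cysteine codons against 5.94% glycine and tyrosine codons, and Krtap11-1, with 12.0% against 11.5%. The highest glycine and tyrosine share was in Krtap6-3, with 70.4%, and the highest cysteine share in Krtap5-5 of chromosome 7, with 41.5%. The members of chromosome 7 were divided, since Krtap5-5 and Krtap5-4 had more cysteine codons and Krtap5-2 and Krtap5-3 more glycine codons, and tyrosine took at most 0.510% in any of them.

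**Figure D1:**
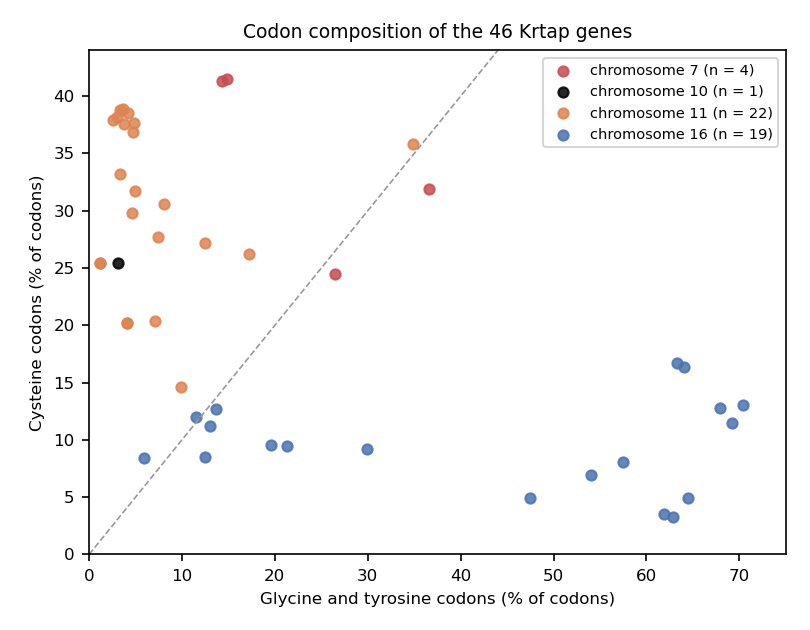
Codon composition of the 46 Krtap genes, with glycine and tyrosine codons on the x axis and cysteine codons on the y axis, both in percent of codons; each point is 1 gene, coloured by chromosome, and the dashed line marks equal shares. All 22 genes of chromosome 11 lie above the line, and 17 of 19 genes of chromosome 16 lie below it.

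By length, the longest coding sequence of chromosome 11 was that of Krtap9-5 with 358 codons and the shortest that of Krtap3-1 with 98. On chromosome 16 Krtap24-1 had 248 codons and Krtap6-3 had 54. On chromosome 7 the range ran from 196 codons in Krtap5-3 to 241 in Krtap5-5. Krtap12-1 had 130 codons. The annotated coding sequences of Krtap5-2, Krtap15 and Krtap6-3 did not start with ATG, and their lengths are therefore uncertain. The G and C content of the coding sequences had a median of 64.4% on chromosome 11, 55.3% on chromosome 16 and 61.6% on chromosome 7. The whole cluster spans were poorer, with 42.0% G and C on chromosome 11, 38.8% on chromosome 16 and 46.2% on chromosome 7, beside 41.8% for the genome.

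Most members had the letters of a TATA box, an element that lies just upstream of some start sites, in their upstream sequence. The letters TATAAA stood within the 250 bases before the annotated start, on either strand, in 37 of 46 Krtap genes (80.4%), beside 12.3% of all protein-coding genes. The counts were 21 of 22 on chromosome 11, 13 of 19 on chromosome 16, 2 of 4 on chromosome 7, and Krtap12-1 had it too. The following stretches of mm9 run 5′ to 3′ on the strand of the gene and end at the base before the annotated start. Their genes show some of the patterns of coverage described below. The patterns of most members are not among them, namely of 18 genes of chromosome 11 (Krtap3-3 to Krtap31-1) and 16 of chromosome 16 (Krtap24-1 to Krtap16-7). TATAAA and CTTTGA are in capitals.
Krtap5-2 (chr7:149361911-149362160, minus strand): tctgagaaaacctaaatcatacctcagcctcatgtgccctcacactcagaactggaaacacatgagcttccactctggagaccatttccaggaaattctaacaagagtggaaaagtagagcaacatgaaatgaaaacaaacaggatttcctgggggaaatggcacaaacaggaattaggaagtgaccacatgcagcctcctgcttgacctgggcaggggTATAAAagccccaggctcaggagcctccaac
Krtap12-1 (chr10:77183081-77183330, plus strand): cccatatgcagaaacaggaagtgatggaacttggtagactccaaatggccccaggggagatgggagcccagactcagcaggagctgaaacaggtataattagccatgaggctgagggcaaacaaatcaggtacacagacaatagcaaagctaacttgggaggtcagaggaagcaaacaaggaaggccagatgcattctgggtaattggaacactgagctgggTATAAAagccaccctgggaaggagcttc
Krtap17-1 (chr11:99855309-99855558, minus strand): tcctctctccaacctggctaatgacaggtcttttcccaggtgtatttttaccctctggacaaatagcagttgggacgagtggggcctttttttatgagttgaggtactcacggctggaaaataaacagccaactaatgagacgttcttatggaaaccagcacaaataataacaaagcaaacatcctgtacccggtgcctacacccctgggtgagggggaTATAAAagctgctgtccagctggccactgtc
Krtap31-2 (chr11:99797355-99797604, plus strand): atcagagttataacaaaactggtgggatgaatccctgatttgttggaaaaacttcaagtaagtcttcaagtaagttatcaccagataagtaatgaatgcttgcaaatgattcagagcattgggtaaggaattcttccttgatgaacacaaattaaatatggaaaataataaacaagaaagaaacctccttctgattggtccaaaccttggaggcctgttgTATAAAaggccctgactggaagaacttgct
Krtap8-1 (chr16:89488198-89488447, minus strand): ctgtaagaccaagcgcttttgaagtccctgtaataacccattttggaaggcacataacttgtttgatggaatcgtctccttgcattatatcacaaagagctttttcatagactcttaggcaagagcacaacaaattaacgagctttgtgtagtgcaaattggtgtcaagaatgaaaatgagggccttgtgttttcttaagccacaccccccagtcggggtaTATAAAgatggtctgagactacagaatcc
Krtap11-1 (chr16:89571429-89571678, minus strand): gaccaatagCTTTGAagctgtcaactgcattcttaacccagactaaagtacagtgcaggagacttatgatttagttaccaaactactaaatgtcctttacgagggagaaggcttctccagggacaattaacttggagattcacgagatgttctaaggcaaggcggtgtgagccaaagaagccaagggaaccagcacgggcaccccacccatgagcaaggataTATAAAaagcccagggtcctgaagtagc
In these 6 genes TATAAA ended 22 to 25 bases before the annotated start, on the strand of the gene. CTTTGA, the core of sites for LEF1, a Wnt effector needed for hair follicles, was found in 10 of 46 Krtap genes (21.7%) and in 13.4% of all genes. Among the 6 it stood in Krtap11-1 alone. TTTATNG, letters of the kind bound by posterior Hox proteins such as HOXC13, was found in 6 of 46 Krtap genes and in 9.47% of all genes, and in 1 of those Krtap genes it overlapped TATAAA. A match says only that these letters are present.

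Domains covered the Krtap genes cluster by cluster. Of the 552 values, 1 for each gene in each library, 128 were 100% and 424 were 0%, and none lay between, so each member was wholly inside or wholly outside. This is not particular to them, since on average over the libraries 0.982% of all protein-coding genes were partly covered. Members of a cluster mostly shared 1 domain and are therefore not independent of each other. Only 7 patterns of libraries were seen among the 46 genes, and 18 of the 46, all on chromosome 11, were inside no domain of any library, as were 32.9% of all protein-coding genes. No Krtap gene was inside both a LAP2alpha and a lamin B1 domain at either sonication, beside 5.05% of all genes.

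**Figure D2:**
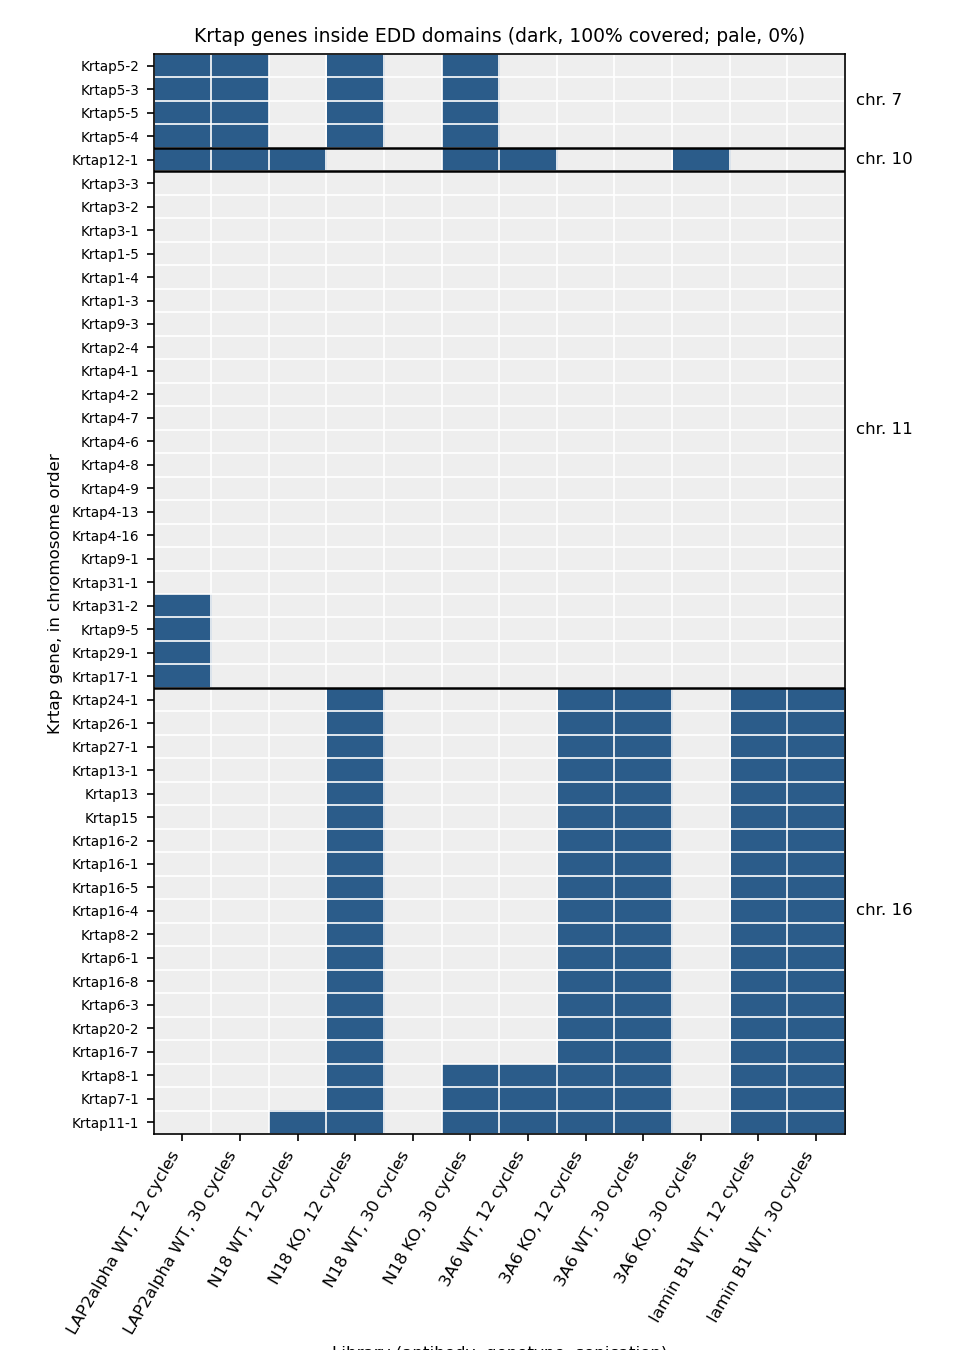
EDD domain coverage of the 46 Krtap genes (rows, in chromosome order) in the 12 libraries (columns); dark cells are genes 100% covered and pale cells genes at 0%, and black lines part the 4 clusters. Chromosome 16 is dark in both lamin B1 libraries and pale in both LAP2alpha libraries, and chromosome 7 shows the opposite.

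LAP2alpha domains held 9 of 46 Krtap genes (19.6%) at 12 cycles, beside 35.9% of all protein-coding genes. At 30 cycles they held 5 of 46 (10.9%) beside 32.3% of all genes. The 5 were the 4 Krtap5 genes and Krtap12-1, inside at both sonications. The other 4 at 12 cycles were the last members of the chromosome 11 cluster. None of the 19 genes of chromosome 16 was inside a LAP2alpha domain, and the nearest LAP2alpha domain lay 2600 kb from that cluster at 12 cycles and 5370 kb at 30 cycles.

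Lamin B1 domains held 19 of 46 Krtap genes (41.3%) at both sonications, beside 7.76% of all genes at 12 cycles and 16.8% at 30 cycles. The 19 were the whole cluster of chromosome 16, and no Krtap gene of chromosomes 7, 10 or 11 was inside. Each count rests on 1 domain, of 1.65 Mb at 12 cycles and 1.72 Mb at 30 cycles.

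With the lamin A/C antibodies in WT cells, the share of Krtap genes was below that of all genes with both at 12 cycles, and above it with 3A6 alone at 30 cycles. At 12 cycles N18 domains held 2 of 46 genes (4.35%, beside 27.4% of all genes) and 3A6 domains held 4 of 46 (8.70%, beside 21.1%). At 30 cycles N18 domains held 0 of 46 (beside 5.89%) and 3A6 domains held 19 of 46 (41.3%, beside 9.42%). In KO cells N18 domains held 23 of 46 (beside 23.1%) at 12 cycles and 8 of 46 (17.4%, beside 28.5%) at 30 cycles. The 3A6 domains of KO cells held 19 of 46 (41.3%, beside 10.7%) at 12 cycles and 1 of 46 (2.17%, beside 12.6%) at 30 cycles. The share of Krtap genes was thus above that of all genes in 5 libraries, in all of which the whole chromosome 16 cluster was inside, and below it in the other 7.

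**Figure D3:**
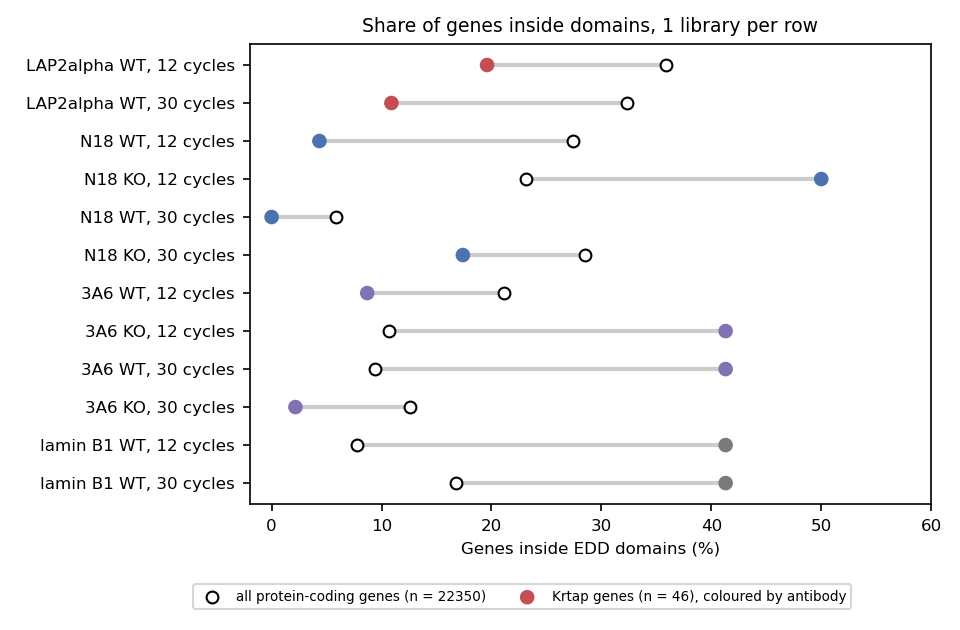
Percent of genes inside EDD domains (x axis) in each of the 12 libraries (rows), with filled points for the 46 Krtap genes, coloured by antibody, and open points for all 22350 protein-coding genes. The filled point lies to the right of the open one in 5 libraries, namely both lamin B1 libraries, 3A6 WT at 30 cycles and both KO lamin A/C libraries at 12 cycles.

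On chromosome 16 a single domain spanned the cluster in 5 libraries. It ran over 1.65 Mb in lamin B1 at 12 cycles (chr16:88099001-89749000), 1.72 Mb in lamin B1 at 30 cycles (chr16:88000001-89716000) and 1.59 Mb in 3A6 WT at 30 cycles (chr16:88110001-89705000). These 3 domains began 501 to 611 kb before Krtap24-1 and ended 134 to 178 kb past Krtap11-1. In KO at 12 cycles the domain of 3A6 ran over 2.69 Mb and ended 1270 kb past the cluster, and that of N18 ran over 10.0 Mb and ended 8630 kb past it. Their starts, 468 and 424 kb before the cluster, lay near those of the others. All 14 genes between the members were inside with them in these 5 libraries.

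The surroundings of the chromosome 16 cluster were covered less. Only 10 protein-coding genes lay within 1 Mb on either side, and lamin B1 domains held 2 of them at 12 cycles and 3 at 30 cycles. Of all genes on chromosome 16, 5.79% were inside lamin B1 domains at 12 cycles and 23.7% at 30 cycles. For 3A6 WT at 30 cycles the values were 2 of the 10 and 19.1% of the chromosome. In KO at 12 cycles 7 of the 10 were inside with each antibody, and 61.6% of the genes of the chromosome with N18 and 41.4% with 3A6. By the EDD score, which ranks domains within a library, the domain over the cluster was 39th of 279 in lamin B1 at 12 cycles, 115th of 370 at 30 cycles, 8th of 239 in N18 KO at 12 cycles and 19th of 328 in 3A6 KO at 12 cycles.

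In 3 further libraries a short domain reached into the end of the chromosome 16 cluster. The domain of 3A6 WT at 12 cycles covered 163 kb of it, starting 3.98 kb past Krtap16-7, and held Krtap8-1, Krtap7-1 and Krtap11-1. The domain of N18 KO at 30 cycles started 2.62 kb before Krtap8-1 and held the same 3 genes. The domain of N18 WT at 12 cycles started 8.42 kb before Krtap11-1 and held that gene alone. The distances of 2.62, 3.98 and 8.42 kb are below the bin of 11 kb in which EDD calls, so the edges are known no more closely than that. Krtap8-1 and Krtap7-1 encode high glycine-tyrosine proteins (47.5% and 29.9% glycine and tyrosine codons), and Krtap11-1 a high-sulfur protein of the hair cortex. Krtap16-7, just outside the 3A6 edge, was named after its values were seen. The cluster was outside all domains in both LAP2alpha libraries, in N18 WT at 30 cycles and in 3A6 KO at 30 cycles.

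**Figure D4:**
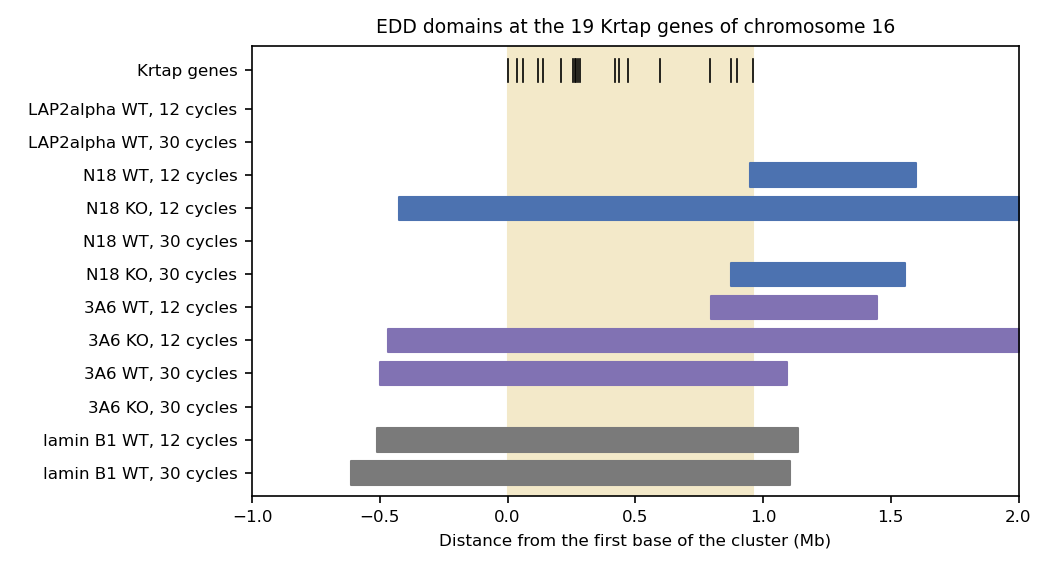
EDD domains (bars, coloured by antibody) in the 12 libraries around the chromosome 16 cluster, by distance in Mb from the first base of Krtap24-1; ticks in the top row are the 19 Krtap genes and the shaded band is the cluster. Domains of 5 libraries span the band, those of 3 others reach into its right end by 9.43 to 163 kb, and 4 libraries have none in it.

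On chromosome 11 most of the cluster lay outside domains. Krtap3-3 to Krtap31-1, 18 genes, were outside all domains of the 12 libraries. Krtap31-2, Krtap9-5, Krtap29-1 and Krtap17-1 were inside a LAP2alpha domain of 4.40 Mb at 12 cycles (chr11:99792001-104192000), which covered 63.3 kb of the cluster, and were in no other. Of all genes of chromosome 11, 55.1% were inside LAP2alpha domains at 12 cycles, as were 50 of the 76 genes within 1 Mb of the cluster but only 1 of the 34 genes between its members. At 30 cycles 37.7% of the genes of the chromosome and 33 of the 76 neighbours were inside, and the nearest LAP2alpha domain ended 48.4 kb before Krtap3-3. Of the 76 neighbours, 23 were inside in N18 WT at 12 cycles and 35 in N18 KO at 30 cycles. In N18 KO at 12 cycles, N18 WT at 30 cycles and all 3A6 and lamin B1 libraries 0 were, so there the neighbours lacked domains as well. The first domain of N18 WT at 12 cycles after the cluster started 2.69 kb past Krtap17-1, and that of N18 KO at 30 cycles 68.7 kb past it. The distance of 2.69 kb is less than the EDD bin of 11 kb, so the place of that edge relative to Krtap17-1 is uncertain. Domains of both lamin B1 libraries kept 5700 kb or more from the cluster, and the 3A6 domain nearest to it in any library lay 3630 kb away.

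As called, the edge of the LAP2alpha domain ran between a pair of nearly identical genes. Krtap31-1 (chr11:99769234-99770204), named after its values were seen, ended 21.8 kb before the edge, and Krtap31-2 (chr11:99797605-99798539) began 5.60 kb after it, less than the EDD bin of 11 kb, so that the place of the edge relative to Krtap31-2 is uncertain. Their coding sequences were the same at 528 of 534 bases (98.9%), over a distance of 27.4 kb, and 60.4% of the words of 50 bases in Krtap31-1 and 58.5% of those in Krtap31-2 occurred once in mm9. Krtap17-1, the last member, encodes a cuticle protein with 35.8% cysteine and 34.9% glycine codons, and Krtap29-1 had the lowest cysteine share of the cluster, 14.6%.

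Hair keratins, the filament proteins that Krtap proteins embed, were covered like the nearest Krtap genes in some libraries and otherwise in others. Of 9 hair keratins of type I, all on chromosome 11, LAP2alpha and N18 WT at 12 cycles each held 7 (beside 35.9% and 27.4% of all genes). N18 KO at 30 cycles held 3 (28.5%). The other 9 libraries held none, beside 5.89% to 32.3% of all genes. The 2 that were in no domain, Krt39 and Krt40, lie on the Krt40 side of the Krtap cluster, and the 7 that were inside, such as Krt31, Krt33a and Krt35, lie beyond Krtap17-1. The 7 shared their LAP2alpha domain with Krtap31-2, Krtap9-5, Krtap29-1 and Krtap17-1. In N18 WT at 12 cycles and N18 KO at 30 cycles, as called, no Krtap gene of chromosome 11 was inside beside the hair keratins. All 5 annotated hair keratins of type II, on chromosome 15, were inside domains of LAP2alpha at 12 cycles (beside 35.9% of all genes). They were also inside those of N18 WT and 3A6 WT at 12 cycles (27.4% and 21.1%) and of N18 KO at 12 and 30 cycles (23.1% and 28.5%). Of the 5, Krt82 was also inside in N18 WT at 30 cycles (5.89%). This was not particular to hair keratins. Of all 24 keratin genes of chromosome 15, LAP2alpha and N18 WT at 12 cycles each held 24. In 3A6 WT at 12 cycles and in N18 KO at 12 and 30 cycles 22 were inside, and 15 in N18 WT at 30 cycles. None of the 14 hair keratins was inside a lamin B1 domain, in contrast to the 19 Krtap genes of chromosome 16. Of all genes, 7.76% were inside lamin B1 domains at 12 cycles and 16.8% at 30 cycles. Over all 51 genes named Krt, lamin B1 held 0 at both sonications. LAP2alpha held 39 of them at 12 cycles (76.5%, beside 35.9% of all genes) and 10 at 30 cycles (19.6%, beside 32.3%).

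Other genes of the hair follicle and epidermis were covered in part. Of 14 genes of the inner root sheath and hair shaft, LAP2alpha held 6 at 12 cycles and 6 at 30 cycles (beside 35.9% and 32.3% of all genes). These were mostly different genes. Krt71, Krt73, Krt74 and Krt75 were inside at 12 cycles alone, and Krt25, Krt26, Krt27 and Krt28 at 30 cycles alone. Tgm3 and Padi3 were inside at both. N18 WT held 6 at 12 cycles and 4 at 30 cycles (27.4% and 5.89%), and 3A6 WT held 6 at 12 cycles and 0 at 30 cycles (21.1% and 9.42%). In KO, N18 held 5 at both sonications (23.1% and 28.5%) and 3A6 held 1 at 12 cycles and 0 at 30 cycles (10.7% and 12.6%). Lamin B1 held 0 at 12 cycles and 1 at 30 cycles (7.76% and 16.8%). Of 15 regulators of the hair follicle, LAP2alpha and N18 WT each held 5 at 12 cycles (beside 35.9% and 27.4% of all genes). At 12 cycles 3A6 WT held 3 (beside 21.1%). The other libraries held 0 to 2, beside 5.89% to 32.3% of all genes. Of these regulators 8 were inside no domain of the 12 libraries, where 32.9% of all genes were, namely Hoxc13, Foxn1, Dlx3, Gata3, Bmp4, Prdm1, Vdr and Hr. Of 40 genes of the epidermal cornified envelope, another set in a tandem cluster, 3A6 KO at 12 cycles held 1 (2.5%, beside 10.7% of all genes). The other 11 libraries held none, beside 5.89% to 35.9% of all genes. Whether this is particular to these genes was not tested.

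On chromosome 7 the 4 Krtap5 genes were inside domains of 4 libraries and outside the other 8. Their family is grouped with the ultra-high-sulfur proteins, and cysteine took 24.5% to 41.5% of their codons. The 4 genes were inside the LAP2alpha domains of 14.0 Mb at 12 cycles and 30.2 Mb at 30 cycles, and inside N18 domains of KO cells, of 9.62 Mb at 12 cycles and 9.17 Mb at 30 cycles. In these 4 libraries all 54 neighbours within 1 Mb and all 5 genes between the members were inside as well. In N18 WT at 12 cycles the cluster lay in a gap, 156 kb past 1 domain and 979 kb before the next, and 32 of the 54 neighbours were inside. In 3A6 WT at 12 cycles a domain of 0.429 Mb ended 2.44 kb before Krtap5-2. This is less than the EDD bin of 11 kb, so the place of that edge relative to Krtap5-2 is uncertain. The 3A6 domain nearest to the cluster in KO at 12 cycles lay 231 kb past it. Domains of both lamin B1 libraries stayed 1400 kb or more away.

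Krtap12-1, which encodes a high-sulfur protein, was inside domains of 6 libraries. They were LAP2alpha at both sonications, N18 WT and 3A6 WT at 12 cycles, and N18 KO and 3A6 KO at 30 cycles. The domains ran from 0.682 Mb in 3A6 KO at 30 cycles (chr10:77110001-77792000) to 6.64 Mb in LAP2alpha at 12 cycles (chr10:74382001-81026000). The ends of the N18 and 3A6 domains lay close together, 575 to 685 kb past the gene. It was outside both lamin B1 libraries, in which the nearest domain lay 21600 kb away at 12 cycles and 1070 kb at 30 cycles.

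**Figure D5:**
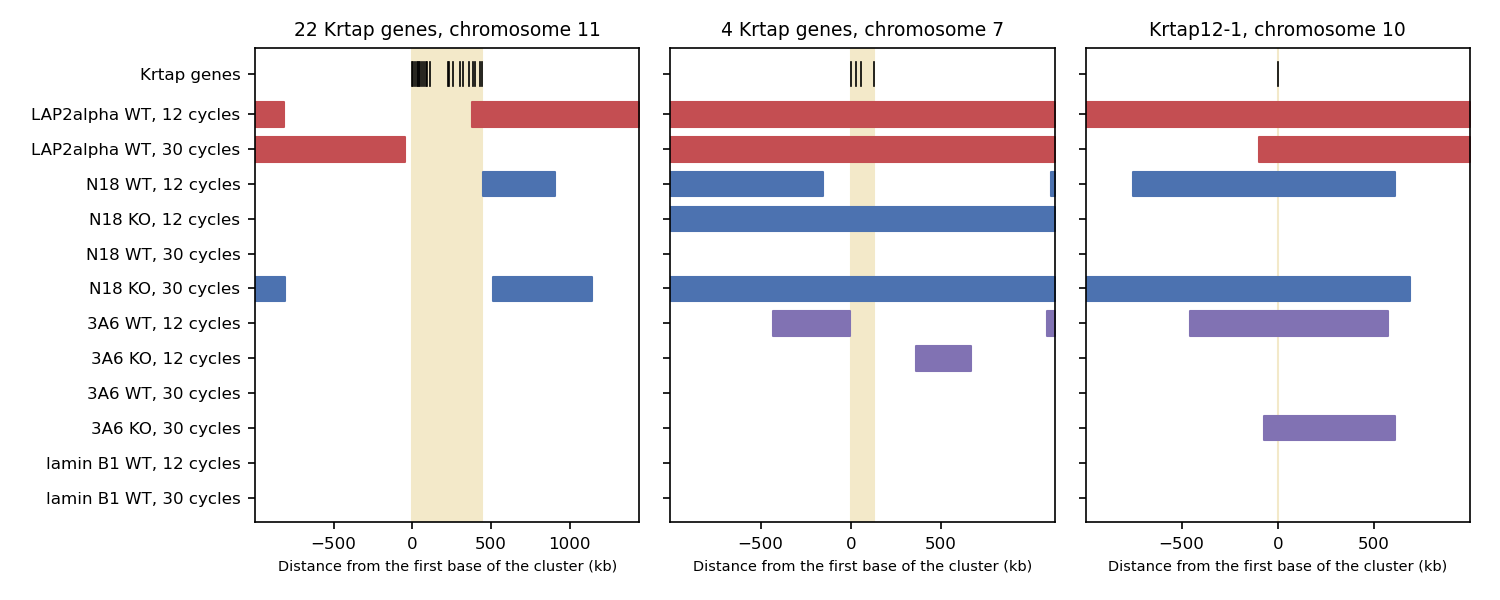
EDD domains (bars, coloured by antibody) in the 12 libraries around the Krtap genes of chromosomes 11, 7 and 10, by distance in kb from the first base of each cluster; ticks mark the Krtap genes, shaded bands the clusters, and bars are trimmed at the panel edge. On chromosome 11 only the LAP2alpha domain at 12 cycles enters the band, by 63.3 kb; 4 libraries span the chromosome 7 band, and 6 cover Krtap12-1.

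The genotype comparison asks how lamin A/C domains differ where LAP2alpha is missing. With N18 at 12 cycles, 22 Krtap genes were inside in KO alone (7.65% of all genes were), 1 in both (15.5% of all genes) and 1 in WT alone (11.9% of all genes). The 22 were the 4 Krtap5 genes and 18 genes of chromosome 16, the gene in both was Krtap11-1, and the gene in WT alone was Krtap12-1. With 3A6 at 12 cycles, 16 genes of chromosome 16 were inside in KO alone (5.01% of all genes), 3 in both (5.71%), namely Krtap8-1, Krtap7-1 and Krtap11-1, and Krtap12-1 in WT alone (15.4%). The same 16 genes of chromosome 16 were inside in KO and not in WT at 12 cycles with both antibodies, beside 2.21% of all genes. They lay in 1 domain per library.

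At 30 cycles the genotypes differed in other members. With N18, 8 Krtap genes were inside in KO alone (24.4% of all genes), namely the 4 Krtap5 genes, Krtap12-1, Krtap8-1, Krtap7-1 and Krtap11-1, and 0 in both (4.13%) or in WT alone (1.76%). With 3A6, 19 genes were inside in WT alone (5.75% of all genes), all of chromosome 16, Krtap12-1 was inside in KO alone (8.93%), and 0 were in both (3.67%). With 3A6 the chromosome 16 cluster was thus inside in KO rather than WT at 12 cycles and inside in WT rather than KO at 30 cycles. As called, the 22 genes of chromosome 11 were outside in all 8 lamin A/C libraries.

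Some of these differences took in a whole chromosome. In KO at 12 cycles chromosome 10 had no domain at all, with N18 or with 3A6, while 8.24% and 6.97% of its bases were in domains in WT. In 3A6 KO at 30 cycles chromosome 16 had no domain, while 34.7% of its bases were in domains in WT. In KO at 12 cycles domains took 36.5% of the bases of chromosome 16 with N18 and 33.9% with 3A6, and in WT 8.69% and 7.09%. With N18 at 30 cycles they took 6.88% in WT and 13.5% in KO. With N18, 27.7% of the genes of chromosome 7 were inside in WT and 41.8% in KO at 12 cycles, and 7.43% and 37.8% at 30 cycles. On chromosome 10 at 30 cycles the values were 0.574% in WT and 26.2% in KO with N18, and 10.0% and 22.1% with 3A6. The genotype differences of the Krtap5 genes, of Krtap12-1 and of the chromosome 16 cluster with 3A6 and with N18 at both sonications therefore went with differences over their chromosomes, and what part of them is particular to the genes was not tested. N18 KO at 12 cycles had no domain on chromosome 14 either. In the 4 lamin A/C libraries of WT and in N18 KO at 30 cycles each chromosome had a domain. Chromosomes without a domain were not limited to KO. The WT library of LAP2alpha at 30 cycles had none on 5 chromosomes, namely 3, 8, 13, 19 and X.

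The sonication comparison asks which contacts depend on how far the chromatin was sheared. For lamin B1, 19 Krtap genes were inside at both sonications (7.16% of all genes) and 0 at 12 cycles alone (0.60%) or at 30 cycles alone (9.61%). For 3A6 WT, 16 were inside at 30 cycles alone (8.41%), 3 at both (1.01%) and Krtap12-1 at 12 cycles alone (20.1%). For 3A6 KO the 19 genes of chromosome 16 were inside at 12 cycles alone (5.50%), Krtap12-1 at 30 cycles alone (7.37%) and 0 at both (5.22%). For N18 WT, Krtap12-1 and Krtap11-1 were inside at 12 cycles alone (24.2%), with 0 at both (3.19%) and 0 at 30 cycles alone (2.70%). For N18 KO, 16 genes of chromosome 16 were inside at 12 cycles alone (6.83%), 7 at both (16.3%) and Krtap12-1 at 30 cycles alone (12.2%). For LAP2alpha, 5 were inside at both (20.2%), 4 of chromosome 11 at 12 cycles alone (15.7%) and 0 at 30 cycles alone (12.1%).

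SICER islands, the short regions, covered few Krtap genes. At least 50% of Krtap12-1 was in islands of LAP2alpha at 12 cycles (16.9% of all genes were), of N18 WT at 30 cycles (8.68%) and of 3A6 WT at 12 cycles (12.8%). Krtap8-1 and Krtap7-1 were in an island of 45 kb with 892 reads in 3A6 KO at 12 cycles (6.97% of all genes), and Krtap9-5 in an island of 35 kb with 1522 reads in 3A6 KO at 30 cycles (4.73%). No other member reached 50% in these libraries, and none in the other 7, in which islands covered 4.43% to 15.8% of all genes. The islands that touched a cluster held 17.1 to 43.9 reads per kb, without correction for the depth of the library. Of the 128 values inside a domain, 4 were also inside islands by the same rule and 124 were not. In 2 values a gene was inside an island and outside all domains. Krtap12-1 lay in an island of 33.0 kb with 1084 reads in N18 WT at 30 cycles, where the nearest domain was 5940 kb away, and Krtap9-5 in its island in 3A6 KO at 30 cycles, where it was 9540 kb away.

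The chromosome 7 cluster had no island in any library. Islands covered between 0.0118% and 0.0702% of the bases of chromosome 7. Its highest value over the 12 libraries was below that of each of the other 19 chromosomes, of which the lowest was 0.211%, although other chromosomes were lower in single libraries, such as chromosome 10 with 0.000769% in N18 KO at 12 cycles. Few islands were thus called on chromosome 7 as a whole.

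Near-identical copies limit what reads can show in these clusters, since the authors discarded reads of low mapping quality. Of the words of 50 bases in the members, 95.1% occurred once in mm9 on chromosome 16, 82.2% in Krtap12-1, 77.8% on chromosome 11 and 61.6% on chromosome 7. The lowest shares were 18.6% in Krtap4-13 and 35.3% in Krtap9-1, both of chromosome 11. Over the whole span of the clusters 89.0%, 84.7% and 84.1% of the words were unique on chromosomes 16, 11 and 7, and 92.4%, 97.4% and 96.6% in the 200 kb on either side. The part of this in the absence of domains over most of the chromosome 11 cluster was not tested.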

How the data were processed

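Domain and island lists of 12 ChIP-seq libraries were analysed, out of 24 samples. The 4 inputs and 8 histone mark samples were not analysed here. The authors trimmed reads with cutadapt, used Bowtie2 2.1.0 to align them with mm9, dropped duplicates and reads of low mapping quality, and reduced ChIP reads to the number of their input with Picard. In the deposited EDD lists each domain carries a score (bin 11 kb, gap penalty 5, FDR 0.1). In the deposited SICER 1.1 lists (window 1000 bp, gap 3000 bp, FDR 0.01) each island carries counts, the ChIP reads in it, not divided by length or depth. Reads in islands, 3989494 to 13601739 per library, served as depth, which limits which regions could be called. No interval could be given for that.

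Positions are on mm9, counted from 1. Genes, transcripts and sequence came from GENCODE vM1 and the NCBIM37 genome, the same build. Of 22350 protein-coding gene records, 22208 had distinct symbols, and a symbol with several records counted once among the members, by its longest. A gene was inside at 50% coverage by domains. Codons were counted in the longest annotated coding sequence, and protein sequences were not used. Words of 50 bases were counted in all of mm9 on both strands. Coverage was computed with Python 3.11.15, numpy 2.4.6 and pandas 2.3.3 and tested on simulated data. Figures were drawn with matplotlib 3.10.9.

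The genes named were the first and last member of each cluster, each member whose call differed from most of its cluster, those with the longest and shortest coding sequence and the highest or lowest codon share or share of unique words, and the fixed lists of hair and epidermal genes. The members and lists were chosen with earlier results of these data known. Comparisons were WT with KO and 12 with 30 cycles within an antibody, 1 library per group, without a test. Alternatives were the transcription start, any overlap, SICER islands, domains scoring above the median of their library, domains of at least 500 kb, and gaps of 500 kb or 2 Mb between clusters.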

Additional observations from a re-analysis of the deposited data

Results flagged for a closer look

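With 3A6, the number of chromosome 16 Krtap genes inside domains was 16 higher in KO than in WT at 12 cycles and 19 lower at 30 cycles (KO minus WT, 16 and -19). Krtap12-1 of chromosome 10 moved the other way with both lamin A/C antibodies, with a difference of KO minus WT of -1 gene at 12 cycles and 1 gene at 30 cycles for N18, and of -1 and 1 for 3A6. These results stand out because the genotypes differ in opposite directions at the 2 sonications. With 1 library per group the difference was not tested, and all members of chromosome 16 shared 1 domain, so each contrast there is a single event. Chromosome 10 had no domain in KO at 12 cycles with either antibody, and chromosome 16 none in 3A6 KO at 30 cycles. The part of this in the results was not tested.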

How the results depend on the processing

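No paired analysis was possible because each group held 1 library. The counts of members were the same under the transcription start, any overlap and domains of at least 500 kb (42 counts each), and gaps of 500 kb and 2 Mb both left 4 clusters. Domains scoring above the median of their library moved 12 of 42 counts by more than 1.5 times and 4 more by less (genes in KO alone at 12 cycles became 23 for N18 and 19 for 3A6, N18 KO at 12 cycles alone and 3A6 WT at 30 cycles alone 19 each). Members inside became 1 in place of 2 for N18 WT at 12 cycles, 5 in place of 8 for N18 KO at 30 cycles, 1 in place of 4 for 3A6 WT at 12 cycles and 0 in place of 1 for 3A6 KO at 30 cycles. In these libraries the shares of all genes fell too, to 23.4%, 23.5%, 17.2% and 9.3%, from 27.4%, 28.5%, 21.1% and 12.6%. The genes inside in both genotypes became 0 for N18 and 3A6 at 12 cycles, those inside in KO alone at 30 cycles 5 for N18 and 0 for 3A6, and by sonication N18 WT at 12 cycles alone became 1, both sonications 4 for N18 KO and 0 for 3A6 WT, and 30 cycles alone 0 for 3A6 KO. SICER islands moved 30 of 42 counts by more than 1.5 times. Members inside became 1 for LAP2alpha at 12 cycles, N18 WT at 30 cycles and 3A6 WT at 12 cycles, 2 for 3A6 KO at 12 cycles, and 0 for LAP2alpha at 30 cycles, N18 WT and N18 KO at 12 cycles, N18 KO and 3A6 WT at 30 cycles and both lamin B1 libraries, and 3A6 KO at 30 cycles held 1 gene both ways, Krtap12-1 by domains and Krtap9-5 by islands. By genotype, the genes in WT alone became 0 for N18 at 12 cycles, 1 for N18 at 30 cycles and 0 for 3A6 at 30 cycles, those in both 0 for both antibodies at 12 cycles, and those in KO alone 0 for N18 at both sonications and 2 for 3A6 at 12 cycles. By sonication, 12 cycles alone became 1 for LAP2alpha, 0 for N18 WT and N18 KO and 2 for 3A6 KO, both sonications 0 for LAP2alpha, N18 KO, 3A6 WT and lamin B1, and 30 cycles alone 1 for N18 WT and 0 for N18 KO and 3A6 WT. Why the counts changed under islands was not tested. The cluster patterns rest on few domains per library, without replicates, and reads and signal were not analysed.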
